A study of Mus musculus with 8 samples.

Results

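Dach1 and Dach2 are paralogs of the dachshund family, and the reads described here are those whose 5′ end fell inside either gene body in a genome-wide translocation assay of Neuro-2a cells, a mouse neuroblastoma line. The assay extends a biotinylated bait primer across a Cas9 cut and reads the sequence that follows, so each read reports DNA joined to, or continuous with, the bait. Dach1 held 9166 reads and Dach2 145, together 9311 of the 26488 reads of the series. Both genes were chosen by their read counts in these libraries, Dach1 as the bait gene and Dach2 for its recurrence in every library with that bait, so the counts are a description and carry no test. The 5′ end was the first base of a plus-strand alignment and the last base of a minus-strand alignment, and all reads sharing it and the strand were counted as 1 distinct position.

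There were 8 libraries, each the only library of its group and each a pool of 3 transfections, from which GFP-positive cells were sorted after 48 h. All carried a plasmid with SpCas9, an sgRNA and a constitutive GFP reporter. Site 1 lies in Dach1, and its 4 libraries received a non-targeting sgRNA, the site 1 sgRNA alone, or the site 1 sgRNA with ataxin-7 of 10Q or 92Q, the normal and the expanded polyglutamine length. Another 4 libraries, built alike with the site 2 bait primer in Supt16 and the site 2 or a non-targeting sgRNA, serve here as the control for the bait. The series' design text names only site 2 and non-targeting sgRNAs for the quality control. The site 1 library with the sgRNA alone thus rests on its label, whose title ends in posCtrl. The labels give no expression of the transgenes per cell, and a pool shows no spread between transfections.

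Dachshund proteins are nuclear cofactors that share a conserved DNA-binding domain with the Ski and Sno proteins. They act with Eya proteins in a network first described in eye development, and Dach1 takes part in the differentiation of several tissues, brain included. Dach1 is autosomal and Dach2 is X-linked.

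The designed oligonucleotides are shown because the sgRNA sets the cut and the primer sets the bait. The capitals in each sgRNA target mark the 10 bases next to the PAM, the part of a guide that tolerates mismatches least. The primers are the unmodified bases of the biotinylated bait primers, with no part marked.
Site 1 sgRNA target: ggtagacatcAGCGCTGTTG
Site 1 bait primer: actaaaaagagcgcccctctttc
Site 2 sgRNA target: ctcgcagcccTCCACCGTAA
Site 2 bait primer: ggtttcccctccgctcttta
No genome sequence was used here, so neither the sgRNA target nor the primer was placed in Dach1 or compared with Dach2.

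Dach1 occupies chromosome 14 from 97786846 to 98169765 (mm10, 382.9 kb) on the minus strand. The bait end, defined as the 5′ end that most on-cut reads had without a targeting sgRNA, was position 98168726 on the plus strand, 1039 bp inside the gene start. Dach2 occupies chromosome X from 113297496 to 113836386 (538.9 kb) on the plus strand. Its reads stood at position 113298692 on the minus strand, 1196 bp inside the annotated gene start. In both genes the main position thus lay near the start of the gene, and its reads ran antisense to the gene and toward that start. Exons and UTRs were not annotated here.

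Reads in Dach1 followed the depth of the library only in part. The 10Q library held 5331 Dach1 reads among 13152, the sgRNA-only library 3266 among 8812, the non-targeting library 402 among 625 and the 92Q library 167 among 963. As a share of the library, Dach1 took 64.3% of non-targeting reads (exact Clopper-Pearson 95% interval 60.4 to 68.1), 40.5% of 10Q reads (39.7 to 41.4), 37.1% of sgRNA-only reads (36.1 to 38.1) and 17.3% of 92Q reads (15.0 to 19.9). None of these intervals overlapped. They cover counting error only, since amplified reads that carry no molecular identifier can be copies of 1 molecule. Every Dach1 read stood in the on-cut lists, as the authors' separation of the lists placed them.

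The bait end itself separated the non-targeting library from the others. It held 378 reads in the non-targeting library, 190 with the sgRNA alone, 413 with 10Q and 17 with 92Q. These were 94.0% of the Dach1 reads in the non-targeting library (91.2 to 96.1), 5.82% with the sgRNA alone (5.04 to 6.68), 7.75% with 10Q (7.04 to 8.50) and 10.2% with 92Q (6.04 to 15.8). The non-targeting share lay far above the other 3, and the 92Q interval overlapped both of the lower ones. With reads of mapping quality 30 or more alone, the shares of the targeted libraries were 1.23% with the sgRNA alone, 1.88% with 10Q and 4.49% with 92Q. Since the bait end was defined in the non-targeting library, this order is partly fixed by that choice. Away from the bait end the non-targeting library held 24 Dach1 reads, against 3076 with the sgRNA alone, 4918 with 10Q and 150 with 92Q.

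Dach2 showed a different pattern, with nearly the same number of reads whatever the library. It held 31 reads in the non-targeting library (exact Poisson 95% interval 21.1 to 44.0), 44 with the sgRNA alone (32.0 to 59.1), 38 with 10Q (26.9 to 52.2) and 32 with 92Q (21.9 to 45.2). All 4 intervals overlapped. The highest count was 1.42 times the lowest, whereas the total reads of the same libraries spanned 21-fold, Dach1 reads 31.9-fold and bait-end reads 24.3-fold. Because the counts were level and the depths were not, the Dach2 share of the library ran from 0.289% with 10Q (0.205 to 0.396) and 0.499% with the sgRNA alone (0.363 to 0.670) to 3.32% with 92Q (2.28 to 4.66) and 4.96% without a targeting sgRNA (3.39 to 6.97). Relative to each read at the Dach1 bait end, there were 0.082 Dach2 reads in the non-targeting, 0.092 in the 10Q, 0.232 in the sgRNA-only and 1.88 in the 92Q library. Dach2 therefore outnumbered the bait end in the 92Q library only, among these 4.

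**Figure D1:**
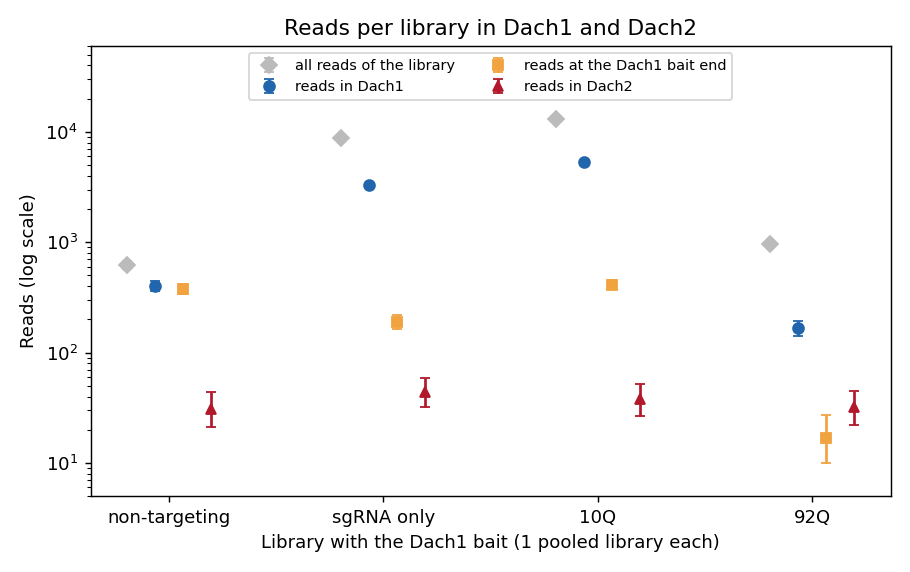
Reads (log scale) in the whole library, in Dach1, at the Dach1 bait end and in Dach2 for the 4 libraries with the Dach1 bait, 1 pooled library each; bars are exact Poisson 95% intervals for counting error. Dach2 stays between 31 and 44 reads while Dach1 runs from 167 to 5331.

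All 145 Dach2 reads shared the 1 position and strand, and no other position of the gene body held a read in any library. Within 300 kb of it on the X chromosome only 7 further reads were listed. The RefSeq promoter windows of Dach2, from 113297260 to 113297559 and from 113298006 to 113298305, held 0 reads in all 4 site 1 libraries. All Dach2 reads stood in the off-cut lists.

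The Dach2 reads had 14 distinct far ends over the 4 libraries, with 6 in the non-targeting library, 9 with the sgRNA alone, 9 with 10Q and 7 with 92Q. The commonest far end, position 113298552, held 19, 24, 17 and 21 reads in those libraries, which gives an alignment of 141 bp, the commonest span of the site 1 libraries. No Dach2 alignment was longer than 141 bp, and neither far ends nor the 21, 21, 19 and 19 flow-cell tiles of the reads separate molecules from copies.

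Neither gene received a read with the Supt16 bait. The 2936 reads of the 4 site 2 libraries held 0 in Dach1 and 0 in Dach2, which allows a share of up to 0.102% for each gene over the site. For single libraries the limit that a count of 0 allows was 0.196% with the sgRNA alone, 0.304% without a targeting sgRNA, 0.984% with 92Q and 2.54% with 10Q. The site 1 shares of Dach2 in the non-targeting, sgRNA-only and 92Q libraries were above the limits of their site 2 counterparts. The 10Q share of 0.289% lay below its counterpart's limit of 2.54%, so as a share its absence at site 2 was not detectable at that depth. These comparisons treat Dach2 as a share of the library, whereas its site 1 counts stayed between 31 and 44 over a 21-fold range of depth. The site 1 libraries in turn held 0 reads in Supt16, the gene of a FACT histone chaperone subunit.

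Among positions on other chromosomes, recurrence in every site 1 library was rare. Of 4335 such positions, 4240 were found in 1 library, 76 in 2, 16 in 3 and 3 in all 4, or 0.0692%. Taking only the 101 positions of the non-targeting library, 2.97% were found in all 4. The Dach2 position was chosen as one of the 3. The other 2 also had reads in the 4 site 1 libraries and in none of site 2, but at far lower counts, 10 and 6 reads in all. At such counts, their absence from the 2936 reads of site 2 says little. Position 38668896 on chromosome 15, inside Atp6v1c1 (38661904 to 38692444), which encodes a subunit of the vacuolar proton pump, held 1, 5, 3 and 1 reads in the non-targeting, sgRNA-only, 10Q and 92Q libraries. Position 132690179 on chromosome 2, inside Shld1 (132686931 to 132751055), which encodes a subunit of the shieldin complex of double-strand break repair, held 1, 2, 1 and 2. At site 2, 0 of 354 positions on other chromosomes occurred in all 4 libraries, or 0%, and 0 in 3 of them.

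By read count, the Dach2 position ranked first among positions on other chromosomes in 3 of the 4 site 1 libraries and second with 92Q. It took 15.0% of all reads on other chromosomes in the non-targeting library, where the next position, inside Pabpc1l on chromosome 2, held 7 reads. With the sgRNA alone it took 1.90% and with 10Q 1.10%. The next position in both, in no gene body on chromosome 13, held 38 and 31 reads and 0 in the other 2 libraries. Of these 38 and 31 reads, 0 reached a mapping quality of 30, whereas 6 of the 7 at Pabpc1l did. With 92Q it took 4.98%, behind a position in no gene body on chromosome 18 that had 0 reads in the other 3 libraries. That position held 34 reads with 92Q, 28 of them of mapping quality 30 or more. These rivals, named after their values were seen, were missing from 1, 2 or 3 of the 4 libraries.

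Within Dach1 the number of distinct positions was 1169 with 10Q, 887 with the sgRNA alone, 121 with 92Q and 13 in the non-targeting library. Reads per position were 4.56, 3.68, 1.38 and 30.9, respectively. Most positions of the 92Q library, 81.0%, had a single read, against 40.3% with 10Q and 43.5% with the sgRNA alone. These libraries differed in Dach1 reads. At 167 reads, the Dach1 total of the 92Q library, the rarefaction formula gives 128.9 positions for 10Q and 128.2 for the sgRNA alone, close to the 121 of the 92Q library, and 7.67 for the non-targeting library.

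The outward side of the bait end, the 1039 bp that remain to the gene start, held mostly plus-strand positions. Of the outward positions, 92.9% were on the plus strand with the sgRNA alone (90.3 to 95.0), 91.1% with 10Q (88.6 to 93.2) and 92.4% with 92Q (84.2 to 97.2). On the gene side, which holds the rest of Dach1, the minus strand prevailed, with 83.4% (79.2 to 87.0), 77.9% (74.2 to 81.3) and 80.5% (65.1 to 91.2). The prevailing strand thus differed between the outward and the gene side in all 3 targeted libraries, in which both sets of intervals overlapped. The change was not sharp at the bait end. From over 100 to 300 bp outward, minus-strand positions numbered 22 with the sgRNA alone, 28 with 10Q and 4 with 92Q. Plus-strand positions there numbered 0, 1 and 0. In the non-targeting library all 10 outward positions were on the plus strand, 5 of them over 300 bp away with 1 read each.

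From over 300 bp outward to the gene start, a window of 739 bases, plus-strand 5′ ends began at 500 bases with 10Q (67.7% of the window), at 423 with the sgRNA alone (57.2%), at 62 with 92Q (8.39%) and at 5 in the non-targeting library (0.677%). The most-read base of the 10Q library apart from the bait end was 98169085, 359 bp away, at which 145 reads of the 10Q, 34 of the sgRNA-only and 2 of the 92Q library began. Position 98169181, 455 bp away and the most-read base with the sgRNA alone apart from the bait end, held 53, 64 and 3 reads in the same libraries, and position 98169198, 472 bp away, held 66, 59 and 3. None of these 3 positions had a read in the non-targeting library. Whether the peaks are many joinings or copies of few cannot be told from reads without molecular identifiers.

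Where it was computed, the share of bases the other library occupied is given beside the positions shared between libraries. Of the 62 positions of the 92Q library in the 739-base window, 61 were also found with 10Q and 59 with the sgRNA alone, which is 98.4% and 95.2% against the 67.7% and 57.2% of bases those libraries occupied. On the gene side 3 of the 41 positions of the 92Q library were shared with 10Q (7.32%) and 4 with the sgRNA alone (9.76%), where those libraries began at 0.0718% and 0.0496% of the bases of both strands. All of these shared positions lay within 10 kb of the bait end. There they were 10.0% and 13.3% of the 92Q positions, against 1.95% and 1.32% of bases. Beyond 10 kb, 0 of its 11 positions were shared with either library. Between 10Q and the sgRNA alone, 421 outward plus-strand positions were shared, 74.5% of the 565 with 10Q and 89.4% of the 471 with the sgRNA alone. In the 739-base window they shared 382. These were 76.4% of the 10Q positions, against 57.2% of bases, and 90.3% of the sgRNA-only positions, against 67.7%. On the gene side they shared 31, or 5.66% and 8.18%, of which 30 lay within 10 kb of the bait end. These 30 were 7.69% of the 10Q positions there, against 1.32% of bases with the sgRNA alone. They were 11.4% of the sgRNA-only positions there, against 1.95% of bases with 10Q. In the 739-base window and within 10 kb on the gene side, the shared percentage was thus above the percentage of bases occupied, without a test. That percentage takes all bases as alike, although 5′ ends lay in blocks and grew sparser with distance. The excess therefore cannot separate shared bases from shared blocks. Over the 1039 outward bases the read counts of 10Q and the sgRNA alone had a Spearman's rho of 0.706 across bases, which share the primer and are not independent. The 92Q library gave 0.339 with the sgRNA alone and 0.338 with 10Q. It had 101 outward plus-strand reads, against 2424 with the sgRNA alone and 3836 with 10Q. Its lower rho cannot be separated from that depth. Of the 13 non-targeting positions in Dach1, 13 were found with the sgRNA alone, 12 with 10Q and 4 with 92Q. In all 4 libraries stood 4, or 30.8%, namely the bait end, 98168725, 98168729 and 98169715.

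Close to the bait end the 5′ ends fell into sharply bounded blocks, and the gaps below were empty in all 4 site 1 libraries. No plus-strand read began between 98168838 and 98169065, an empty run of 226 bases whose near edge is a single 10Q read 112 bp outward, although 90 minus-strand reads at 42 positions began there. No minus-strand read began in the 191 bases around the bait end, between 98168635 and 98168827, where 1553 plus-strand reads did. A second minus-strand gap of 262 bases, between 98168947 and 98169210, held 2536 plus-strand reads. On the gene side, no plus-strand read began in the 109 bases between 98168612 and 98168722. The gaps were found by looking at these data, and no test was made of them.

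Seen as coverage, the gaps met in 1 stretch that no read of any site 1 library overlapped. It ran from 98168972 to 98169064 on chromosome 14, 93 bases between 246 and 338 bp outward of the bait end, with dense 5′ ends beginning right after it. A shorter uncovered stretch of 37 bases, from 98168364 to 98168400, lay on the gene side, at -362 to -326 bp. From 1 kb on the gene side to the gene start, 6.37% of 2040 bases were covered by no read, while the median base was covered by 64.5 reads over the 4 libraries. The base composition of these stretches and how uniquely they map were not examined here.

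**Figure D2:**
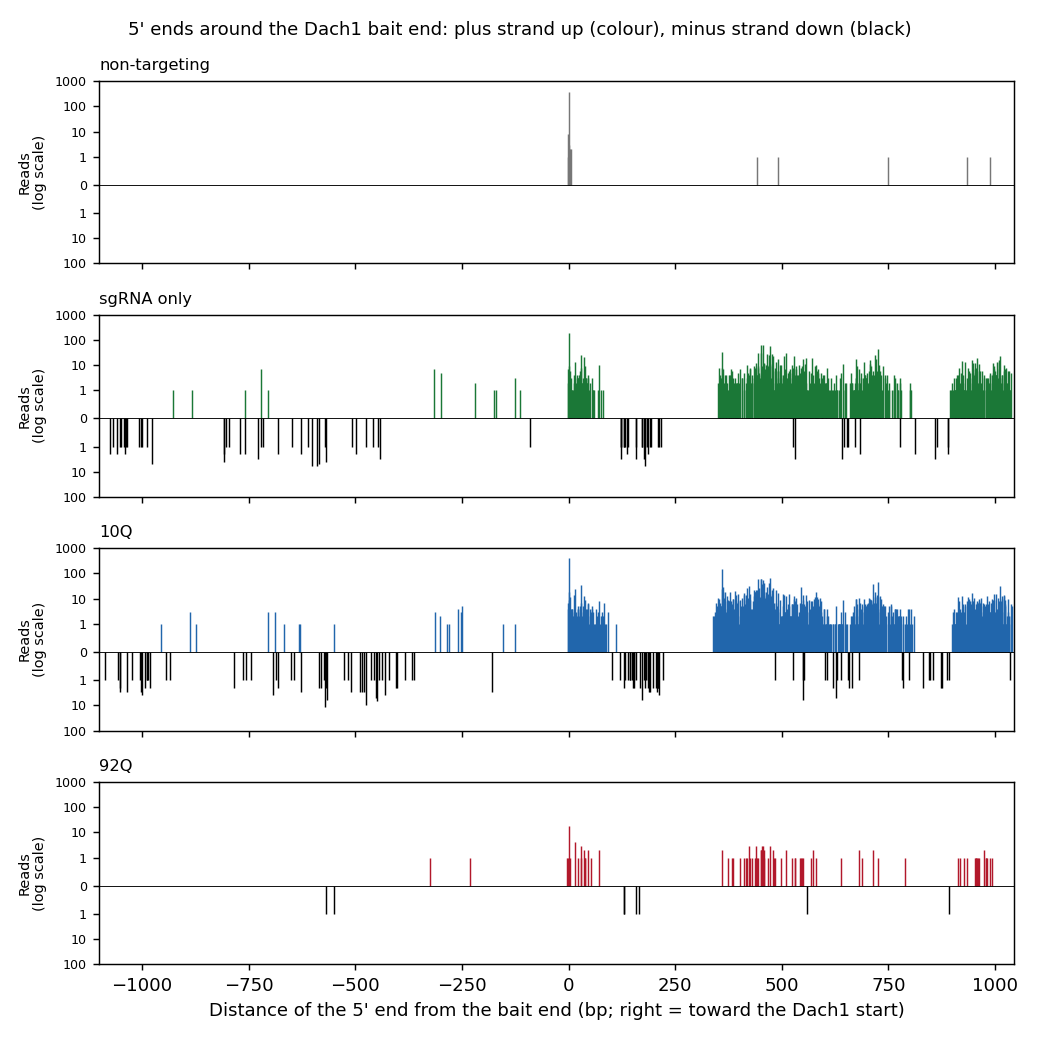
Reads per 5′ end (log scale, plus strand upward in colour, minus strand downward in black) against distance from the Dach1 bait end in bp, 1 panel per library, with the gene start at the right edge. The plus strand is empty from 81 to 350 bp outward with the sgRNA alone, from 112 to 339 bp with 10Q and from 72 to 359 bp with 92Q.

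Along the gene body, from over 100 bp on the gene side, the density of minus-strand positions fell with distance from the bait end in the 10Q and sgRNA-only libraries, and in the 92Q library beyond 10 kb. On the minus strand, with 10Q, it was 50.0 positions per kb from over 100 bp to 1 kb on the gene side, 32.1 from 1 to 10 kb, 0.8 from 10 to 100 kb and 0.0745 beyond 100 kb. The sgRNA-only library gave 30.0, 22.7, 0.767 and 0.0532 over the same classes, and the 92Q library 2.22, 2.33, 0.100 and 0.00355, the last from 1 position. On the plus strand the 10Q densities were lower from over 100 bp to 100 kb, at 20.0, 4 and 0.456, while beyond 100 kb they stood at 0.0851, from 24 positions against 21 on the minus strand. The strand difference of 10Q was therefore not seen in the far part of the gene. With the sgRNA alone the far part held 5 plus-strand and 15 minus-strand positions. These densities were not equalised for depth or set against mappability.

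**Figure D3:**
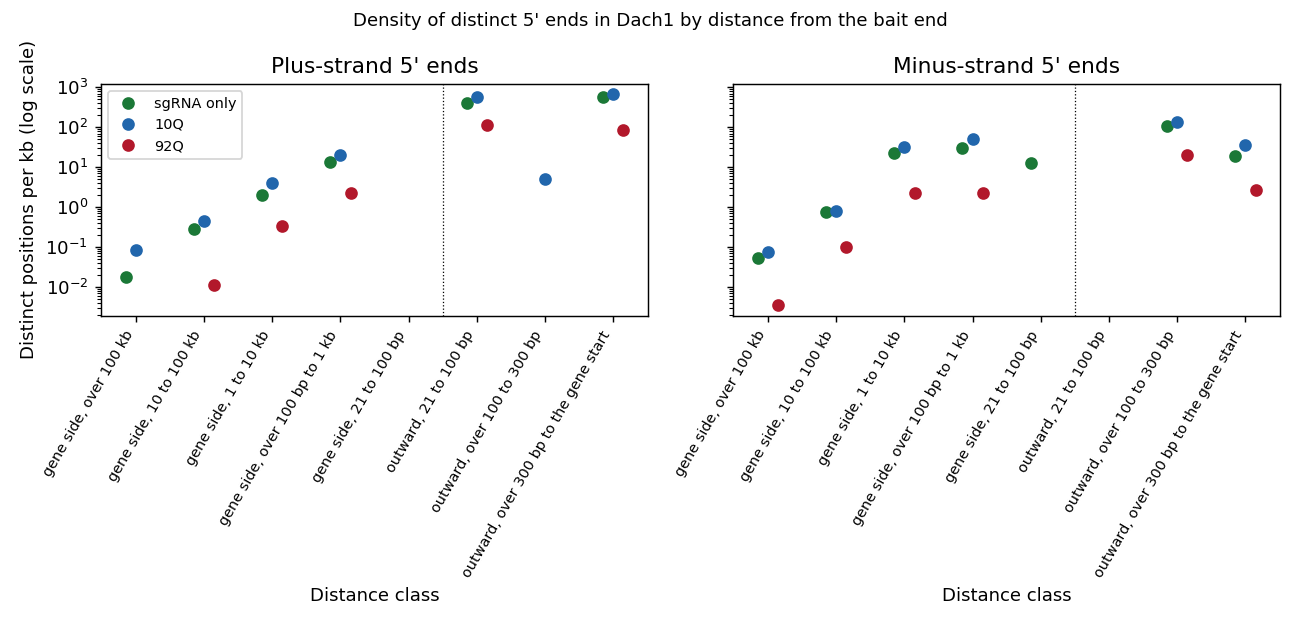
Distinct 5′ ends per kb of Dach1 (log scale) by distance class from the bait end, plus strand left and minus strand right, for the 3 targeted libraries; classes with 0 positions have no point, and the dotted line marks the bait end. On the gene side density falls from 50.0 to 0.0745 per kb on the minus strand with 10Q, and the 92Q library lies below the others in every class where it has positions.

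Within 10 kb of the bait end lay 87.0% of Dach1 positions with the sgRNA alone (84.6 to 89.2), 86.5% with 10Q (84.4 to 88.4) and 90.9% with 92Q (84.3 to 95.4), with overlapping intervals. Within 1 kb the shares were 58.4% with the sgRNA alone (518 of 887), 55.6% with 10Q (650 of 1169) and 71.1% with 92Q (86 of 121). No interval was computed for these, and the higher 92Q share was neither tested nor equalised for depth. All 13 non-targeting positions lay within 1 kb. The farthest positions on the gene side stood at -374491 bp in the 10Q library, -353889 bp in the sgRNA-only library and -155105 bp in the 92Q library.

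The gene start made no break in the reads. The last 100 bp inside Dach1 held 527 reads at 91 positions with 10Q, 397 at 80 with the sgRNA alone and 13 at 12 with 92Q. The first 100 bp outside, which the choice of reads leaves out, held 353 at 85, 268 at 82 and 12 at 11. The non-targeting library had 1 read on each side. The RefSeq bases upstream of Dach1 (GRCm38.p6) are printed on the gene's strand, chr14:98169766-98170015, because plus-strand reads went on through them. Capitals mark the 20 of 250 bases, each in its complement, at which reads of all 3 targeted libraries began.
Dach1 upstream: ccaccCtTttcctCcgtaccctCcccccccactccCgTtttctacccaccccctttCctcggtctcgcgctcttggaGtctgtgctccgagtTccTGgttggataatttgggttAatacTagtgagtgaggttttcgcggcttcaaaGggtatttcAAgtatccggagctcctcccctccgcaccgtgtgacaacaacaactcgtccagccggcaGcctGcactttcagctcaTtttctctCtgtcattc
The 92Q library began at 26 of these bases, 10Q at 164, the sgRNA alone at 188 and the non-targeting library at 3.

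Strand and mapping quality were not used to choose the reads and were compared between libraries over distinct Dach1 positions. The test was Fisher's exact, two-sided, and the 6 p-values were adjusted by Benjamini-Hochberg. Each test compares 2 libraries, not conditions. The plus-strand share was 67.8% with 92Q (82 of 121 positions, 58.7 to 76.0) and 58.8% with 10Q (687 of 1169, 55.9 to 61.6), a difference of 9 percentage points that did not pass (Fisher's exact test, adjusted p = 0.113). Merging positions within 5 bp joined runs of neighbours, which took 10Q from 1169 positions to 473 and 92Q from 121 to 80. The difference then became 29.0 points and passed (adjusted p = 2.74e-06, Fisher's exact test), a value that carries density as well as strand. Counted as reads, the difference turned to -7.82 points (adjusted p = 0.0208 by Fisher's exact test). That p-value takes reads as independent, which copies of the same molecule are not. The direction of the difference thus depended on the unit counted. Between 10Q and sgRNA-only the difference, -1.55 points, did not pass (adjusted p = 0.496, Fisher's exact test).

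The sgRNA-only library, at 60.3% (535 of 887), lay below the non-targeting library, at 13 of 13 (Fisher's exact test, adjusted p = 0.0148). The bait end and its plus strand were defined in the non-targeting library, which had 7 further plus-strand positions within 20 bp. The call was thus partly fixed by that choice. That call ended without the positions within 20 bp of the bait end, where the non-targeting library keeps 5 (adjusted p = 0.185 by Fisher's exact test, difference -40.5 points).

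The share of Dach1 positions with a read of mapping quality 30 or more was 64.5% with 92Q (78 of 121, 55.2 to 73.0), 70.0% with 10Q (818 of 1169, 67.3 to 72.6), 73.6% with the sgRNA alone (653 of 887, 70.6 to 76.5) and 38.5% in the non-targeting library (5 of 13, 13.9 to 68.4). Neither 92Q against 10Q (-5.51 points, Fisher's exact test, adjusted p = 0.257) nor 10Q against the sgRNA alone (-3.64 points, Fisher's exact test, adjusted p = 0.113) passed. The sign of 92Q against 10Q turned when reads were counted (2.51 points), near positions merged (2.33) or 2 or more reads required (2.67). A position counts by its best read, so the share also depends on reads per position, 1.38 with 92Q and 4.56 with 10Q. The sgRNA-only library stood 35.2 points above the non-targeting library (Fisher's exact test, adjusted p = 0.0259), and without positions within 20 bp of the bait end the difference was -5.89 points (Fisher's exact test, adjusted p = 1).

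Per read, in the 3 targeted libraries, mapping quality was lower at the bait end than on the gene side of Dach1. At the bait end 14.6% of reads reached 30 in the non-targeting library (11.2 to 18.5), 11.1% with the sgRNA alone (6.97 to 16.4), 12.3% with 10Q (9.33 to 15.9) and 23.5% with 92Q (6.81 to 49.9, from 17 reads). On the gene side the shares were 64.8%, 59.8% and 58.1% with the sgRNA alone, 10Q and 92Q, and 0 of 9 reads in the non-targeting library. With 92Q the gene-side interval (42.1 to 73.0) overlapped that of the bait end. At the Dach2 position they were 51.6% in the non-targeting library (33.1 to 69.8), 47.7% with the sgRNA alone (32.5 to 63.3), 44.7% with 10Q (28.6 to 61.7) and 59.4% with 92Q (40.6 to 76.3). In the non-targeting, sgRNA-only and 10Q libraries the Dach2 interval lay wholly above that of the Dach1 bait end. With 92Q the 2 intervals overlapped. At the Supt16 bait end the share was 46.7% in the non-targeting library (43.4 to 50.0, 917 reads) and 30.1% with the sgRNA alone (21.8 to 39.4, 113 reads), both above the Dach1 bait end of the same treatment. With 92Q (20.0% of 20 reads) and 10Q (16.7% of 6) the intervals of the bait ends overlapped.

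Mapping quality went with the length of the alignment. Of the 81 Dach2 reads that spanned 141 bp, 73 reached a mapping quality of 30, and of the 64 with another span 0 did. At the Dach1 bait end the corresponding counts were 115 of 639 and 16 of 359, so low values there were frequent at 141 bp too. For plus-strand outward reads of Dach1 they were 3053 of 3432 and 317 of 2944.

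**Figure D4:**
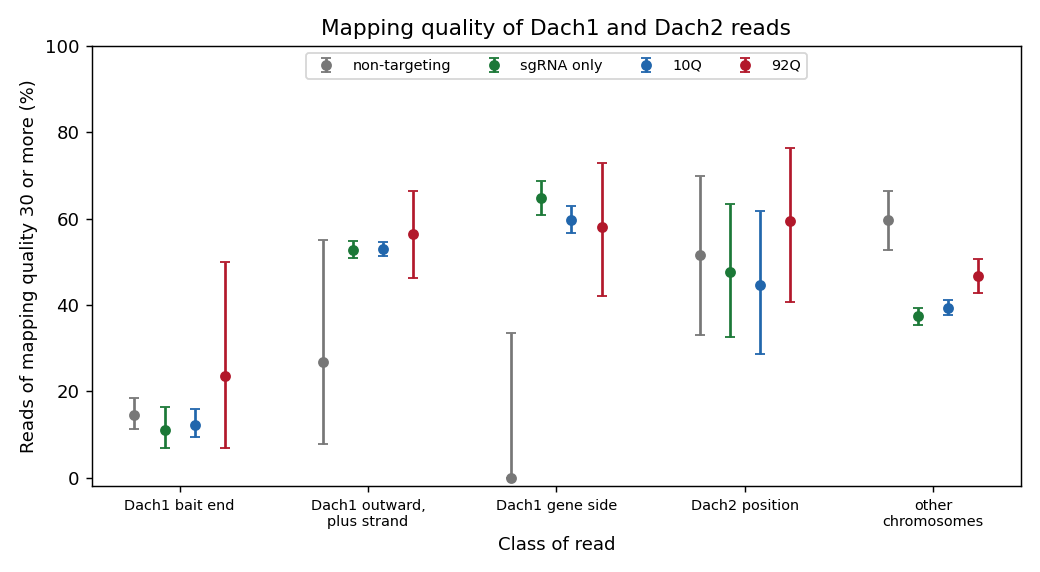
Percentage of reads with a mapping quality of 30 or more, by class of read and library, with exact Clopper-Pearson 95% intervals; other chromosomes are all reads off chromosome 14, Dach2 included. Bait-end reads lie between 11.1% and 23.5%, and Dach2 reads between 44.7% and 59.4% in the 4 libraries.

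The 4 Eya genes, which encode phosphatases that act as transcription cofactors, held 10 reads in all 8 libraries. Eya2 held 4 reads with the sgRNA alone and 2 with 92Q, Eya1 held 2 with 10Q, Eya4 held 1 with 10Q and Eya3 held 1 in the site 2 non-targeting library. Ski, Skil, Skor1, Skor2 and Pax6 held 0 in every library. The share over genes of like length was not computed, so these counts cannot be called high or low.

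Read names were compared between libraries, which cannot show the treatment a library had. Of all reads, 3 names were listed in 2 libraries each, all 3 at a bait end and 1 of them at that of Dach1, between 10Q and 92Q.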

How the data were processed

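The authors deposited 2 lists per library, on-cut and off-cut, with 1 aligned read per line, and their only measured value is a score, the mapping quality, from 0 to 42. Per the submitters' processing notes, Bowtie2 was used, and mm10 and mm9 appear there as builds. Versions, roles, filters, duplicate removal and the on-cut rule: not given in the sources used here. Coordinates were read as mm10, in which both bait ends fall inside the genes the labels name, and counted from 1, and gene bodies, strands and promoter windows come from RefSeq GRCm38.p6 tables. All reads were kept. Site 1 libraries held 625 to 13152 reads and site 2 libraries 118 to 1527, with 1 library per group, so p-values measure counting error between libraries. Intervals are exact at 95%, and the limit for a count of 0 is 3 reads. Scripts used Python 3.11.15 and scipy 1.17.1 and were tested on simulated data. The members and lists were chosen with earlier results of these data known. Named genes were Dach1, Dach2, Supt16, genes of positions recurring in all 4 site 1 libraries, and family-list members with a read. Some list members with 0 reads are named too. Part of that list is not reported here. Positions near each other were merged, mapping quality and read minimums changed, reads counted in place of positions, and depths equalised as alternatives.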

Additional observations from a re-analysis of the deposited data

How the results depend on the processing

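Of the 6 strand and mapping-quality differences in Dach1, 4 turned direction under some alternative. The strand difference of sgRNA only minus non-targeting and the mapping-quality difference of 10Q minus sgRNA only kept theirs under all 5 alternatives run for each. Counted as reads, the plus-strand difference was -7.82 points for 92Q minus 10Q and 0.433 for 10Q minus sgRNA only, and the mapping-quality difference for 92Q minus 10Q was 2.51. With positions within 5 bp merged these were 29.0, 5.37 and 2.33 points, and the mapping-quality difference for sgRNA only minus non-targeting was -9.34. Merging joins more positions where they lie densely, so the merged differences also carry density. With 2 or more reads per position the plus-strand differences were 25.0 points for 92Q minus 10Q, now past Fisher's exact test (adjusted p = 0.024), and -24.0 for sgRNA only minus non-targeting, no longer past it, and the mapping-quality difference for 92Q minus 10Q was 2.67. The sgRNA-only call on strand also ended with mapping quality 30 alone (-35.5 points) and without positions within 20 bp of the bait end (-40.5), where the mapping-quality difference turned to -5.89. The causes were not tested.

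Distinct Dach1 positions merged within 5 bp numbered 6, 346, 473 and 80 in the non-targeting, sgRNA-only, 10Q and 92Q libraries. With mapping quality 30 alone they were 5 in the non-targeting and 78 in the 92Q library, and at 167 reads 7.67, 128.2 and 128.9 in the first 3. The bait-end share of Dach1 reads within 5 bp was 98.8% without a targeting sgRNA and 8.84% with 10Q, and with mapping quality 30 alone it was 1.23% with the sgRNA alone, 1.88% with 10Q and 4.49% with 92Q. Dach2 reads of mapping quality 30 or more numbered 16, 21, 17 and 19 in the 4 libraries, level again, and a window of 100 bp changed none of the 4 counts. The share of positions within 10 kb was 94.6% and 94.5% with the sgRNA alone and 10Q as reads, and 67.3% and 67.2% with near positions merged. Of 78 alternatives, 43 kept their direction and call or stayed near the main value. No paired analysis was possible because each group has 1 library. Precision is limited by the 167 and 402 Dach1 reads of the 92Q and non-targeting libraries, by 1 library per group and by reads without molecular identifiers.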
